A study of Mus musculus with 3 samples.

Results

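The genes described here encode the respiratory chain and ATP synthase of mitochondria as far as these are encoded in the nucleus. They were taken by symbol from the gene list of the heart library: every gene whose symbol starts with Nduf, Uqcr, Atp5, Cox4i, Cox5, Cox6, Cox7 or Cox8, and Sdha, Sdhb, Sdhc and Sdhd. This gave 92 of the 28692 genes listed, all annotated as protein-coding. By role, 36 were subunits of complex I, 4 of complex II, 8 of complex III, 20 of complex IV and 15 of complex V. The symbols also took in genes that are not subunits: 7 complex I assembly factors (symbols starting with Ndufaf) and the 2 factors Atp5s and Atp5sl. They left out Cyc1 and Cycs, which carry electrons in the same chain.

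Oxidative phosphorylation runs on 5 protein complexes of the inner mitochondrial membrane. Complexes I and II take electrons from NADH and succinate, complex III passes them to cytochrome c, complex IV hands them to oxygen, and the proton gradient built on the way drives ATP synthesis by complex V. Complexes I, III, IV and V are mosaics of nuclear-encoded subunits and of subunits encoded by mitochondrial DNA, whereas complex II is wholly nuclear-encoded. In activated CD4 T cells mitochondrial respiration works beside glycolysis to supply energy and building blocks.

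The cells were wild-type TEa CD4+ T cells, which carry a transgenic T cell receptor for the I-E alpha alloantigen of BALB/c mice. Naive, congenically marked TEa cells had been given to C57BL/6 mice before a BALB/c heart was grafted, and TEa cells were sorted from the heart allografts and the spleens 7 days after transplantation. Each group was 1 droplet-based 3' single-cell library, 1 from heart allografts and 1 from spleen. TEa cells thus have 1 transgenic receptor in common, though the receptor chains of the kept cells were not checked here. Neither library came from an ungrafted animal. How many recipients each library holds is not given in the sources used here. A spleen library of Ldha-/- TEa cells was not analysed here.

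Values are counts of unique molecular identifiers (UMIs), which stand for captured transcripts, summed over the T cells of a library and scaled to CPM (counts per 1e6 UMIs). After filtering, 3985 heart T cells and 6561 spleen T cells held 42259134 and 56066541 UMIs, with medians of 8237 and 7989 UMIs per cell. T cell markers summed to 7252 CPM in heart against 6811 in spleen, with 0 of 7 at 0 in either. Of 10 cardiomyocyte markers, 8 were at 0 in each library, and the list summed to 0.142 CPM in heart against 0.0357 in spleen. After removal of a myeloid cluster, 334 CPM in heart and 209.9 in spleen came from 13 monocyte or macrophage markers, and 0.0710 and 279 CPM from 5 erythroid markers, 3 of them at 0 in heart. The removed myeloid barcodes of the heart library gave 23272 CPM of the members, close to the T cells. Dividing cells made up 10.7% of the heart cells (428) and 2.21% of the spleen cells (145), and 6 barcodes occurred in both libraries. With 1 library per group no difference has a replicate check, so no test was made, tissue and library cannot be told apart, and the 95% intervals below cover counting error only.

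The respiratory chain genes together took a slightly larger part of the transcripts in heart T cells than in spleen T cells. They summed to 24148 CPM in heart, or 2.41% of all UMIs, and to 21000 CPM in spleen, or 2.10%, a ratio of 1.15 (1.147 to 1.153). The median cell gave 2.20% of its UMIs to them in heart and 2.02% in spleen, and 2.2% and 2.0% after each cell was thinned to 1000 UMIs. The middle part of the cells, from the lower to the upper quartile, ran from 1.93 to 2.54% in heart and from 1.83 to 2.25% in spleen, so the distributions overlapped widely.

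Of the 92 genes, 81 reached 10 CPM in at least 1 library and are compared by ratio. The lowest of these was Ndufaf7 with 13.97 CPM in spleen, and the highest of the 11 left out was Ndufaf6 with 8.85 CPM in spleen. Since the minimum could be met in either library, the 81 do not stand for all members. Ratios of single genes were taken as log2 with 1 CPM added to both libraries, which makes differences of low genes look smaller. On this scale 55 of 81 were higher in heart (67.9%), against a background of 43% of the 6950 genes tested in the same way. Their median was 0.13, and the median of all genes was -0.11. Differences were small: 3 members were at least 1.5-fold higher in heart (background 15.8%) and 2 at least 1.5-fold lower (background 21%). No member was 2-fold higher (background 9.17%), and the same 2 were 2-fold lower (background 8.43%).

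The choice of the library total moved this overall shift. Mitochondrial, ribosomal protein and Malat1 UMIs made up 35.2% of the heart UMIs and 42.6% of the spleen UMIs. With totals that leave them out, 43.4% of the members were higher in heart (36 of 83) against 31.1% of all genes, with medians of -0.04 for members and -0.32 for all genes. This total shifts every log2 ratio by -0.17. The median member lay above the median of all genes by 0.24 on the first scale and by 0.28 on the second. This distance was smaller with a minimum of 50 CPM (0.12, where the median of all genes was 0.051), in dividing cells (0.14), as a mean of per-cell CPM (0.16) and with cells thinned to 1000 UMIs (0.17), and it was -0.064 for the clusters compared below. Differences between the complexes, in contrast, do not depend on a total, and the account below turns on them.

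**Figure D1:**
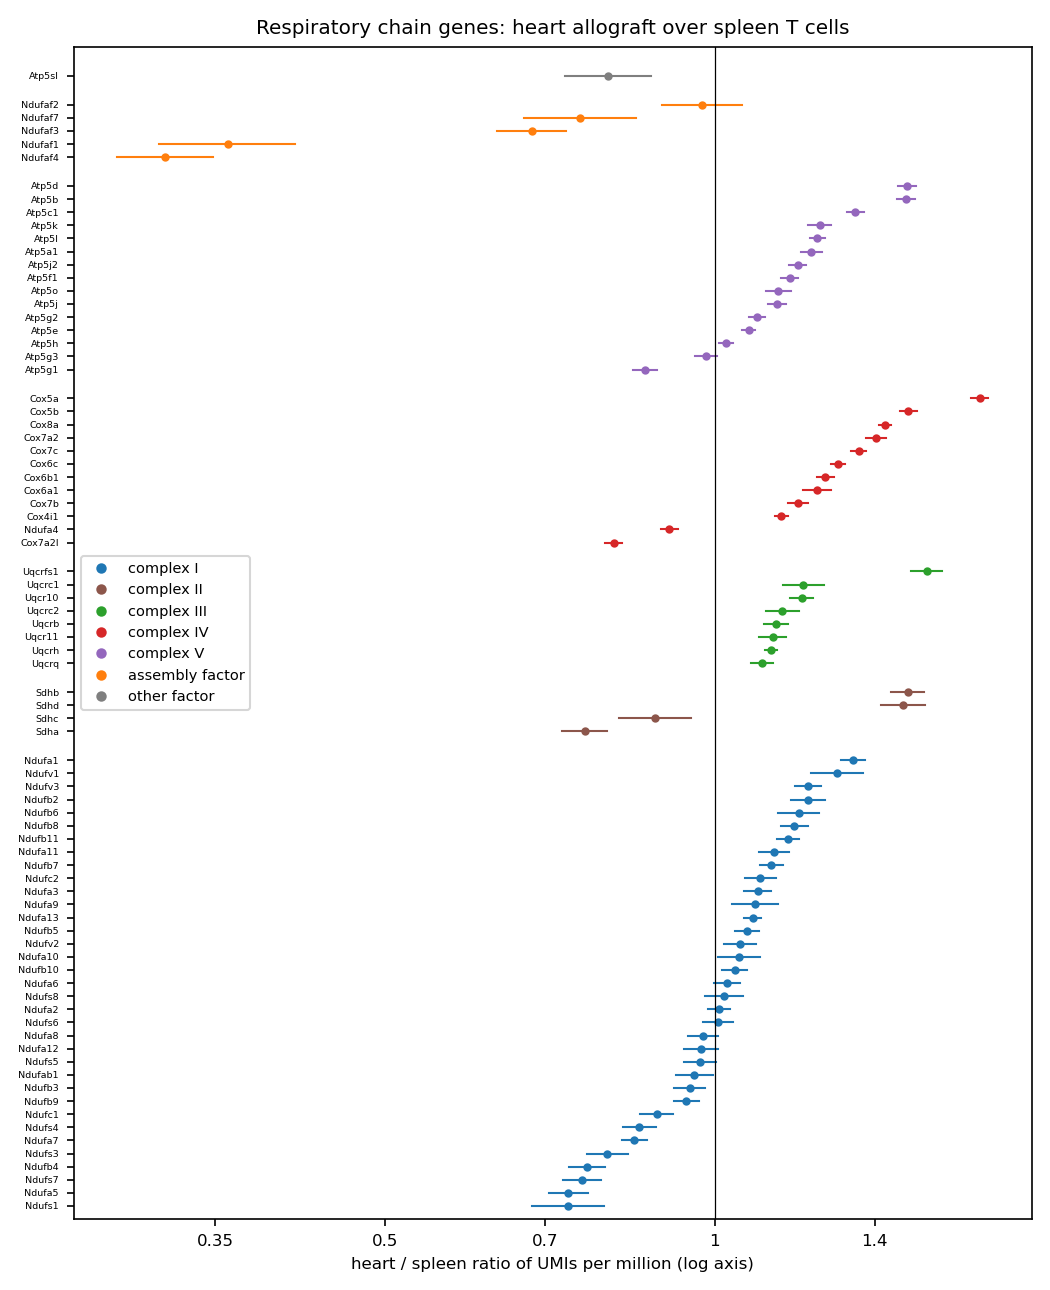
Ratio of heart to spleen level for the genes past the minimum that are reported singly, grouped by role, on a log axis with equal levels at the vertical line. Points are ratios of CPM and bars 95% counting intervals; complex IV lies mostly to the right, complex I on both sides, and the assembly factors to the left, down to 0.315 for Ndufaf4.

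Complex I, which oxidises NADH and is the largest of the complexes, was nearly level between the libraries. Its 36 subunits summed to 6146 CPM in heart against 5950 in spleen, a ratio of 1.03 (1.03 to 1.04), with 22 higher and 14 lower in heart and a median log2 ratio of 0.04. With the other total 8 of the 36 were higher in heart. Its core subunits hold the flavin and iron-sulfur centres, and those described here lay on both sides of equal. Ndufv1, which binds NADH and the flavin, stood at 61.7 CPM in heart against 47.7 in spleen, a ratio of 1.29 (1.22 to 1.36). Ndufs1, the largest core subunit, went the other way, with 25.1 CPM in heart against 34.1 in spleen (0.734, 0.681 to 0.792). Ndufs7, which carries the last iron-sulfur cluster before the quinone, stood at 89.5 and 118 CPM (0.756, 0.727 to 0.787), and Ndufs3 at 80.0 and 100.2 CPM. Ndufs8 had a ratio of 1.02 and Ndufv2 of 1.05.

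The 29 accessory subunits of complex I spread as widely, from a log2 ratio of -0.44 to 0.42. Ndufa5 had the lowest ratio, with 85.0 CPM in heart against 115.6 in spleen, and Ndufb4 stood at 101 and 132 CPM. Ndufa1 had the highest, with 288 and 216 CPM. Complex I thus held genes on both sides of equal in its core and in its accessory part alike.

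Complex II, succinate dehydrogenase, was split down the middle. Sdhb, the iron-sulfur subunit, stood at 161 CPM in heart against 108 in spleen, a ratio of 1.501 (1.45 to 1.55). Sdhd, a membrane anchor, stood at 91.2 and 61.4 CPM, a ratio of 1.49 (1.42 to 1.56). Both were higher in heart over all T cells. Between heart cluster 2 and spleen cluster 4, described below, Sdhd was lower in heart (75.9 against 89.8 CPM), and so was Sdhb by less than its counting interval (136 against 140.3 CPM). Sdha, the catalytic flavoprotein, stood at 67.3 CPM in heart against 88.5 in spleen (0.761, 0.726 to 0.797), and Sdhc, the other anchor, at 27.4 and 31.1 CPM (0.882, 0.818 to 0.951). Of the UMIs of the 4 genes, Sdha gave 19.4% in heart (exact binomial interval 18.7 to 20.02%) and 30.7% in spleen (29.95 to 31.4%), while Sdhb gave 46.5% and 37.3%. The heart to spleen ratio of Sdhb and Sdhd together was 1.89 times that of Sdha and Sdhc (1.80 to 1.98). It was 1.81 times among cells that were not dividing, 1.21 times (1.10 to 1.33) between the clusters compared below, and 1.37 times among dividing cells, where Sdha itself was level at 80.9 CPM in heart against 78.9 in spleen.

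Complex III, the cytochrome bc1 complex, was higher in heart for all 8 of its subunits taken by the symbol rule. With the other total 2 of them (Uqcrq and Uqcrh) fell below equal. The sum was 2533 CPM in heart against 2179 in spleen, a ratio of 1.16 (1.15 to 1.17). Uqcrfs1, the Rieske iron-sulfur protein, which passes electrons from ubiquinol towards cytochrome c, differed most. It stood at 190 CPM in heart against 122 in spleen, a ratio of 1.56 (1.51 to 1.61). The core proteins Uqcrc1 (96.4 and 80.0 CPM) and Uqcrc2 (139 and 120.5 CPM) and the hinge protein Uqcrh (1024 and 909 CPM) had ratios from 1.13 to 1.205. Between heart cluster 2 and spleen cluster 4, described below, 3 of the 8 were higher in heart and 5 lower. Of all genes, 37.5% were higher in heart in that comparison. The sum of complex III there had a ratio of 1.02 (1.001 to 1.03). Cyc1, left out by the rule, stood at 92.9 CPM in heart against 79.2 in spleen. Its log2 ratio was -0.019 in cells that were not dividing.

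Complex IV, cytochrome c oxidase, had the largest shift of the complexes I to V over all T cells, though not among dividing cells, where complexes II (1.18, 1.10 to 1.26) and III (1.09, 1.06 to 1.12) had higher ratios than complex IV (1.05, 1.03 to 1.06). Its nuclear-encoded subunits summed to 7389 CPM in heart against 5890 in spleen, a ratio of 1.25 (1.25 to 1.26). Of its 12 members past the minimum, 10 were higher in heart with either total, with a median log2 ratio of 0.35. Cox5a and Cox5b encode the nuclear subunits that bind the catalytic core from the matrix side. Cox5a stood at 640 CPM in heart against 367 in spleen, a ratio of 1.75 (1.71 to 1.78), the highest among the 81. Cox5b stood at 550 and 366 CPM, a ratio of 1.503 (1.47 to 1.53). Cox5b was just inside the 1.5-fold mark with a log2 ratio of 0.59, and Atp5d, Sdhb and Atp5b were just outside with 0.58 each.

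The small membrane subunits of complex IV followed with lower ratios. Cox8a stood at 1098 CPM in heart against 768 in spleen (1.43, 1.41 to 1.45) and Cox7a2 at 441 and 314 CPM (1.403, 1.37 to 1.43). Cox4i1, a subunit needed early in assembly, stood at 902 and 784 CPM (1.15, 1.13 to 1.17). Cox6a1, Cox6b1 and Cox7b lay between 1.19 and 1.26. The 2 members that were lower in heart are not classical subunits. Cox7a2l, described as joining complexes III and IV into supercomplexes, stood at 465 CPM in heart against 575 in spleen (0.808, 0.794 to 0.823). Supercomplexes were not measured here. Ndufa4, first counted with complex I and now with complex IV, stood at 478 and 526 CPM (0.909, 0.893 to 0.925).

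Tissue forms of complex IV subunits were at or near 0. Cox8b, Cox7b2, Cox8c and Ndufa4l2 had 0 UMIs in both libraries, which allows up to 0.0710 CPM in heart against 0.0535 in spleen (3 counts per library). Cox6a2, the form of heart and skeletal muscle, had 0 UMIs in heart and 6 in spleen. Cox4i2, a form known for low oxygen and lung, had 4 UMIs in each library. Cox7a1, another muscle form, had 107 UMIs in heart (2.53 CPM) and 21 in spleen (0.375 CPM), a ratio of 6.76 (4.21 to 11.4). Cox6b2, a testis form, had 76 and 24 UMIs (1.80 and 0.428 CPM), a ratio of 4.20 (2.62 to 6.95), but with cells thinned to 1000 UMIs it was lower in heart (log2 ratio -0.22). Barcodes of 1 to 100 UMIs, which hold free RNA and no cell, gave 1.87 CPM of Cox7a1 in heart (3 UMIs) and 0.702 CPM in spleen (2 UMIs), and 3.11 and 1.76 CPM of Cox6b2 (5 UMIs each). These counts are too few to order cells against empty droplets, and the part of free RNA in the ratios was not tested.

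**Figure D2:**
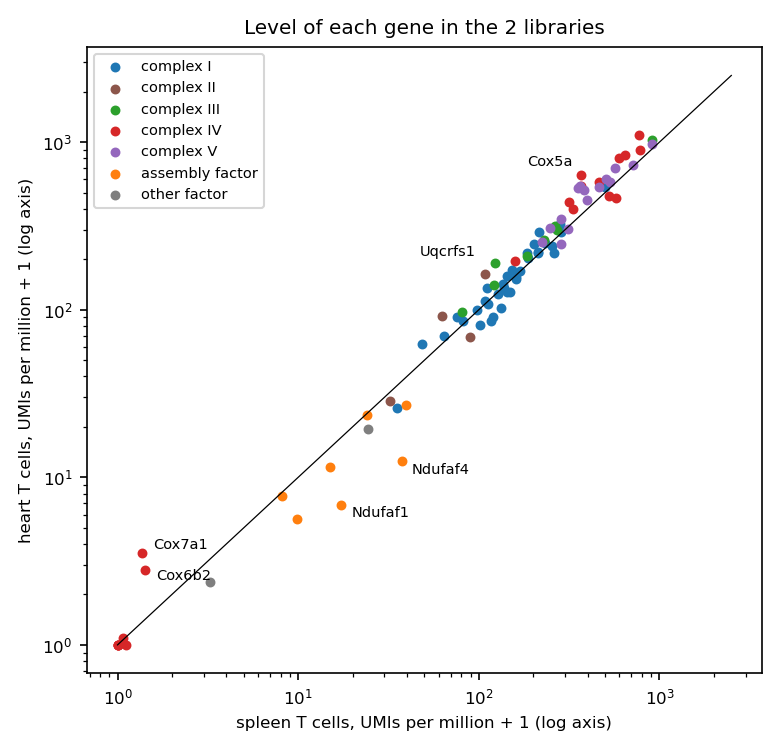
Level of each of the 92 genes in spleen (horizontal) and heart (vertical) T cells as CPM + 1 on log axes, coloured by role, with equal levels on the line. Most points lie close to the line; Ndufaf4 (11.5 and 36.4 CPM) and Ndufaf1 (5.84 and 16.3 CPM) lie furthest below it among genes past 10 CPM.

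Complex V, the ATP synthase, was higher in heart as a sum, with 7625 CPM against 6524 CPM, a ratio of 1.17 (1.16 to 1.17). Of its 15 genes 13 were higher (10 with the other total), and the parts of the enzyme differed. The 5 genes of the catalytic F1 head and central stalk were all higher, with a median log2 ratio of 0.43, except that Atp5e fell below equal with the other total. Atp5b, the catalytic beta subunit, stood at 544 CPM in heart against 364 in spleen (1.49, 1.47 to 1.52). Atp5d of the central stalk stood at 528 and 352 CPM (1.499, 1.47 to 1.53), and Atp5a1, the alpha subunit, at 348 and 284 CPM (1.23, 1.198 to 1.25). The 4 peripheral stalk genes, which hold the head in place, had a median of 0.19 (0.018 with the other total). The 3 genes for the proton-turned c-ring had a median of -0.03, and all 3 were lower in heart with the other total.

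The c-ring genes encode the same mature protein behind different import sequences, so their shares describe how transcripts for it were divided. Atp5g1 stood at 246 CPM in heart against 285 in spleen, Atp5g2 at 580 and 530 CPM, and Atp5g3 at 304 and 310 CPM. Atp5g2 gave 51.3% of the c-ring UMIs in heart (50.9 to 51.8%) and 47.2% in spleen (46.8 to 47.6%), and Atp5g1 gave 21.8% and 25.3%. The total of the 3 was level, with 1129.7 CPM in heart against 1125 in spleen, beside an F1 sum of 2906 and 2287 CPM.

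Assembly factors of complex I were lower in heart than in spleen. The 7 Ndufaf genes summed to 87.8 CPM in heart against 144 in spleen, a ratio of 0.609 (0.586 to 0.633), and all 5 past the minimum were lower in heart with either total. Ndufaf4 stood at 11.5 CPM in heart against 36.4 in spleen, a ratio of 0.315 (0.285 to 0.348). Ndufaf1, which helps to build the membrane arm, stood at 5.84 and 16.3 CPM (0.359, 0.311 to 0.414). These are the 2 members at least 2-fold lower. Ndufaf3 had a ratio of 0.681 (0.632 to 0.732), while Ndufaf2 had 0.974 (0.895 to 1.06), which includes equal levels. The sum of the 7 had a ratio of 0.540 (0.516 to 0.565) in cells that were not dividing. Among dividing cells it was nearer equal, at 0.819 (0.727 to 0.924). There Ndufaf2 was higher in heart (41.8 against 31.9 CPM), and the other 5 past the minimum were lower. Across the 81 members the ratio was higher for genes of higher level (Spearman rho 0.489, across genes of the same libraries), the Ndufaf genes are among the members of low level, and the part of level was not tested. The subunits of complex I were themselves below equal with the other total (log2 ratio -0.13) and within each state of division, as given below.

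The promoters of the 5 genes past 1.5-fold, the 2 lower and the 3 higher in heart, are shown to compare their sequence. Each window spans 250 bases before to 50 bases after the first listed RefSeq start (GRCm38.p6, the assembly of mm10), printed 5' to 3' on the gene's strand. Motifs of factors known for control of respiratory genes were searched on both strands: NRF1 as GCATGCGC, the ETS family (GABP) as CCGGAAG, YY1 as AAGATGGC and SP factors as GGGGCGGGG. Matches of different strings were counted separately, also where they overlap, and NRF1 matches on the 2 strands can overlap each other. Capitals mark matches. Ndufaf4 lies at chr4:24897833-24898132 (+), Ndufaf1 at chr2:119662785-119663084 (-), Cox5a at chr9:57520982-57521281 (+), Uqcrfs1 at chr13:30545267-30545566 (-) and Cox5b at chr1:36691237-36691536 (+).
Ndufaf4: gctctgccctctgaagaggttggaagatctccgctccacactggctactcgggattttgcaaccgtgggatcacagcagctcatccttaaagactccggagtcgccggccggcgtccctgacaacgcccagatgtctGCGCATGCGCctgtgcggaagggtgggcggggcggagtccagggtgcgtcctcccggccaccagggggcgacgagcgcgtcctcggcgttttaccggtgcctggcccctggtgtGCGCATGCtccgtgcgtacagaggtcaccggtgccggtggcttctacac
Ndufaf1: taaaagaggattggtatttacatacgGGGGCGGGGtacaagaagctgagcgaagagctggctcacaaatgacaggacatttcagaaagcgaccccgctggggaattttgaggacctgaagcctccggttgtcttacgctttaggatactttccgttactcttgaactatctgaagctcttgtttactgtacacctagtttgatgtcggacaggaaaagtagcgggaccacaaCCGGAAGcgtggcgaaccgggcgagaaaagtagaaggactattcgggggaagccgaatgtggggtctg
Cox5a: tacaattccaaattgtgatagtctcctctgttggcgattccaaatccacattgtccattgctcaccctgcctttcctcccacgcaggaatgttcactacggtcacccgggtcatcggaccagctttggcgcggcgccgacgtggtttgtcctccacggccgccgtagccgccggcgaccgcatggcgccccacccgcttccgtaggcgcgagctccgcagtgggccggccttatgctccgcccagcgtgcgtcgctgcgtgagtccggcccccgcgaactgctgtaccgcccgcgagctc
Uqcrfs1: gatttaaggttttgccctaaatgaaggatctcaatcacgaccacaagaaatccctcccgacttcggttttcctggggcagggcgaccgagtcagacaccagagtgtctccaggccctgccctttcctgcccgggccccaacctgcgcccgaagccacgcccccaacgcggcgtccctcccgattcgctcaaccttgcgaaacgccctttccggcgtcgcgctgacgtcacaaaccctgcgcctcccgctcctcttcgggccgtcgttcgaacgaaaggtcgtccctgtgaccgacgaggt
Cox5b: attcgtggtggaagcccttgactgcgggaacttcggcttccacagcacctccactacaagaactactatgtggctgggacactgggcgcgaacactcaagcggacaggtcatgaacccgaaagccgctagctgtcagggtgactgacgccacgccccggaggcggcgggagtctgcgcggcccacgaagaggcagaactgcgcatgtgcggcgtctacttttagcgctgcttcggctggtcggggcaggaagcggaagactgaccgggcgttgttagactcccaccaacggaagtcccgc

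The Ndufaf4 window held 3 NRF1 matches, 2 of which overlap on opposite strands, and the Ndufaf1 window held 1 ETS and 1 SP match. The windows of Cox5a, Uqcrfs1 and Cox5b held no match of the 4 strings. RefSeq windows were matched for 76 of the 92 genes. NRF1 strings stood in 12 of the 76 (15.8%), against 2.81% of all 27025 promoter windows and 3.61% of the 17492 windows of protein-coding genes. YY1 strings stood in 10 of 76 (13.2%), against 2.88% and 3.22%, and 7 of the 10 were among the 32 matched complex I subunits. ETS strings stood in 16 of 76 (21.1%), against 9.12% and 11.9%, and SP strings in 13 of 76 (17.1%), against 11.6% and 15.5%. The median heart to spleen log2 ratio was 0.18 for the 11 members past the minimum with an NRF1 string and 0.11 for the 59 without. It was 0.07 for the 10 with a YY1 string and 0.15 for the 60 without. With and without an ETS string it was 0.21 and 0.11, and with and without an SP string 0.11 and 0.17. A match describes the letters of a window and is neither a binding site nor a cause of a level.

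Set against complex I inside the same libraries, the other complexes were shifted by amounts that no total changes. Level is a limit here too. Across the 75 subunits past the minimum the ratio was higher for genes of higher level (Spearman rho 0.375, and 0.224 across all genes). The part of level in these shifts was not tested. The heart to spleen ratio of complex IV was 1.21 times that of complex I (1.21 to 1.22), that of complex III 1.13 times (1.11 to 1.14), that of complex V 1.13 times (1.12 to 1.14) and that of complex II 1.17 times (1.14 to 1.19). That of the assembly factors was 0.590 times (0.567 to 0.613). Dividing cells were more frequent in heart and carried more of these transcripts, so the ratios were also taken inside each state. Among cells that were not dividing, complex IV over complex I stood at 1.25 (1.24 to 1.26), and among dividing cells at 1.09 (1.06 to 1.11). The assembly factors over complex I stood at 0.550 (0.526 to 0.575) and 0.850 (0.754 to 0.957) in the same order. The overall shift shrank from 1.15 to 1.11 (1.107 to 1.114) in cells that were not dividing, where 49 of 81 members were higher (60.5%, background 40.8%), and to 1.03 (1.02 to 1.03) in dividing cells, where 41 of 82 were higher (50%, background 37.2%). Of the members, 2 were at least 1.5-fold higher (background 15.3%) and 4 at least 1.5-fold lower (background 22.9%) in cells not dividing, and 0 (background 9.53%) and 2 (background 19.9%) in dividing cells. Complex I itself then lay below equal, at 0.982 (0.976 to 0.987) and 0.964 (0.948 to 0.979). The split was uneven: 395 of 641 cells of heart cluster 5 were called dividing, and 82 of 90 of spleen cluster 7. These are the dividing clusters described below, with 28719 and 28110 CPM of the members. Heart cells not called dividing thus still included cells of a cluster high in these transcripts. Their part in the ratios was not tested.

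A comparison of the 2 clusters with the most Th1 and cytotoxic markers, chosen after the data had been seen, turned the overall direction. Clusters were made without the members. Heart cluster 2 (2138 cells, led by Cxcr6, Rgs1 and Crem) had 4 of 10 such markers at least 2-fold above the other cells, and spleen cluster 4 (953 spleen cells, led by Ccl5) had 6. Cluster 4 also had haemoglobin genes among its 10 leading genes, more of them than Th1 markers, so it is compared by number and not by name. The members summed to 22718 CPM in heart cluster 2 and 24428 CPM in spleen cluster 4, a ratio of 0.930 (0.925 to 0.935). Dividing cells made up 20 of 2138 cells (0.935%) in the heart cluster and 57 of 953 (5.98%) in the spleen cluster. Cluster borders depend on the settings: the pair chosen by the same rule gave 0.932 at resolution 0.4 and 0.969 at resolution 1, where dividing cells made up 0.902% and 0.810%. Of 81 members, 18 were higher in the heart cluster (22.2%), against 37.5% of all genes, 11 were at least 1.5-fold lower (background 24.3%) and 0 at least 1.5-fold higher (background 13.6%). Complex I had a ratio of 0.822 (0.814 to 0.830) and complex IV of 1.01 (1.001 to 1.02), so complex IV over complex I stood at 1.23 (1.21 to 1.25). The assembly factors had 0.501 (0.464 to 0.540). Cox5a was nearly level there, with 569 and 523 CPM, and so was Cox5b, with 489.6 and 488 CPM.

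**Figure D3:**
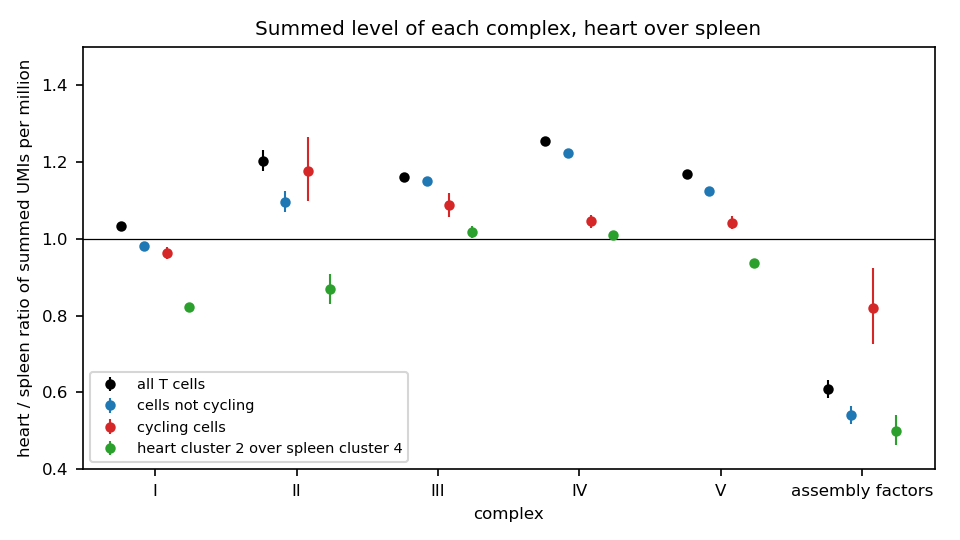
Heart to spleen ratio of the summed CPM of each complex and of the assembly factors, for all T cells, for cells not dividing, for dividing cells and for heart cluster 2 over spleen cluster 4. Bars are 95% counting intervals, some smaller than the points; complex I is below complex IV in each of the 4 comparisons (1.03 and 1.25 for all T cells).

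Among all clusters of at least 50 cells, the members ranged from 2.04% of UMIs (heart cluster 3) to 2.87% (heart cluster 5) in heart, and from 1.963% (spleen cluster 6) to 2.81% (spleen cluster 7) in spleen. The highest in each library, heart cluster 5 and spleen cluster 7, were the dividing clusters by their markers, and haemoglobin genes were also raised at least 2-fold in spleen cluster 7. Heart cluster 3, led by Hspa1a, Hspa1b and Ifng, had all 3 heat shock markers at least 2-fold above the other cells. It had the lowest level of complex I of these clusters, with 4912 CPM. In spleen, cluster 0, which had markers of naive or stem-like T cells, gave 1.996% of its UMIs to the members, and cluster 6, with interferon response markers, 1.963%. Cox5a followed the same order in heart, with 899 CPM in cluster 5, 569 in cluster 2 and 410 in cluster 3. Cox7a2l ran the opposite way, with 301 CPM in cluster 5, 500.5 in cluster 2 and 633 in cluster 3. Sizes of clusters were not compared between the libraries.

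Within each library, dividing T cells gave more of their transcripts to the respiratory chain than other T cells. In heart the members summed to 28222 CPM in dividing cells and 22997 CPM in the others, a ratio of 1.23 (1.22 to 1.23). In spleen they summed to 27510 and 20711 CPM, a ratio of 1.33 (1.32 to 1.34). In heart 74 of 80 members were higher in dividing cells (92.5%, background 52.5%) and 25 at least 1.5-fold higher (background 18.1%). In spleen 73 of 82 were higher (89%, background 54.5%) and 21 at least 1.5-fold higher (background 20.9%). In each library 2 were at least 1.5-fold lower (background 9.74% in heart and 13% in spleen). Dividing cells were deeper, with medians of 19689.5 UMIs against 7887 in heart and 15060 against 7955.5 in spleen. Among cells that were not dividing, the members' share of UMIs was higher in deeper cells (Spearman rho 0.469 in heart and 0.225 in spleen, across cells of 1 library). The part of depth was not tested. With totals that leave out mitochondrial, ribosomal protein and Malat1 UMIs, 69 of 83 in heart and 55 of 83 in spleen were higher. The summed log2 ratios of the members were 0.17 and 0.08. The share of all genes higher with this total was not counted, so these counts have no background here.

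Among the 81 members past the minimum over whole libraries, 70 were higher in dividing cells of both libraries (background 37.8%), 4 lower in both (background 36.3%) and 7 differed in sign. The 15 at least 1.5-fold higher in both (background 9.84%) included Cox5a, Sdhb, Sdhd, Ndufa4 and Ndufc1. Cox5a had 889 CPM in dividing and 569.99 CPM in other heart cells, and 721 and 351 CPM in spleen. Sdhb had 237 and 140.1 CPM in heart, and 182 and 104 CPM in spleen. The 4 that were lower in both were Cox7a2l, Uqcrh, Ndufa6 and Atp5sl. Cox7a2l had 297 CPM in dividing and 512 in other heart cells, and 300 and 588 CPM in spleen. It was thus nearly level between the libraries in dividing cells and lower in heart in the others. Uqcrh had log2 ratios of -0.53 in heart and -0.36 in spleen, and Ndufa6 of -0.51 and -0.39.

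**Figure D4:**
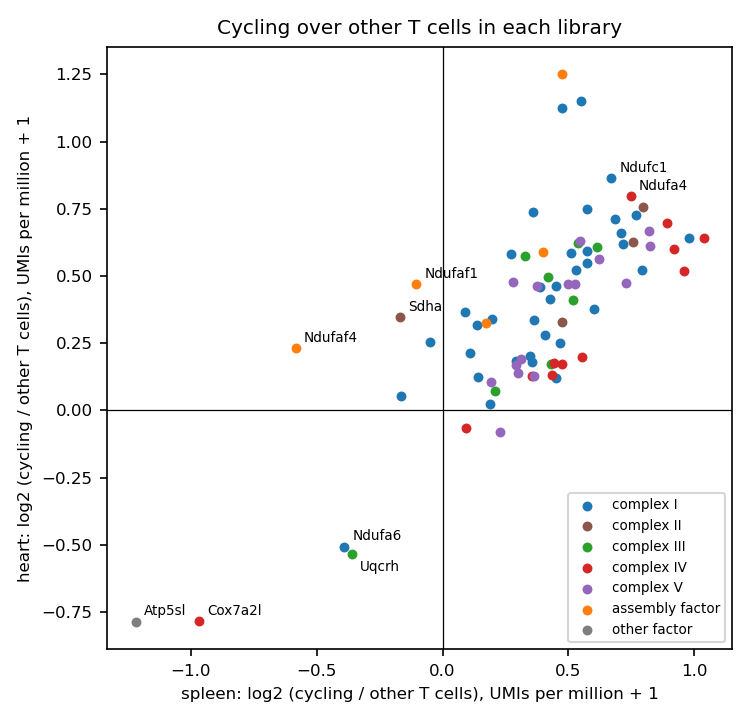
Log2 ratio of dividing over other T cells for each of the 81 members, in spleen (horizontal) and heart (vertical), on the scale of CPM + 1. Most members lie in the upper right, 70 being higher in dividing cells of both libraries, and Cox7a2l (-0.97 in spleen, -0.78 in heart) and Atp5sl lie at the lower left.

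Over all T cells and with the first total, the sums of subunits encoded by mitochondrial DNA moved against those of their nuclear partners. All 13 were lower in heart, with a median log2 ratio of -0.53, and summed to 32277 CPM in heart against 45974 in spleen, a ratio of 0.702 (0.701 to 0.704). The list shares its transcripts with the limit on mitochondrial UMIs that was used to keep cells. The nuclear-encoded subunits of all complexes stood to the mitochondrially encoded ones as 0.745 in heart and 0.453 in spleen. In complex I the ratio was 1.43 and 0.817, in complex III 1.196 and 0.583, in complex IV 0.430 and 0.271, and in complex V 0.882 and 0.493. The 2 libraries thus differed in balance by 1.64-fold over all subunits (1.64 to 1.65). The difference was 1.63-fold in cells that were not dividing, 1.08-fold in dividing cells and 1.24-fold in heart cluster 2 against spleen cluster 4. The directions were not opposite throughout. In cells that were not dividing, complex I was lower in heart for both kinds, at 0.982 (nuclear) and 0.547 (mitochondrial). Complexes III, IV and V kept opposite directions there. Among dividing cells complex I stood at 0.964 (nuclear) and 1.01 (mitochondrial, 0.990 to 1.03). Between the 2 clusters both sums over all subunits were lower in heart, at 0.933 and 0.750.

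**Figure D5:**
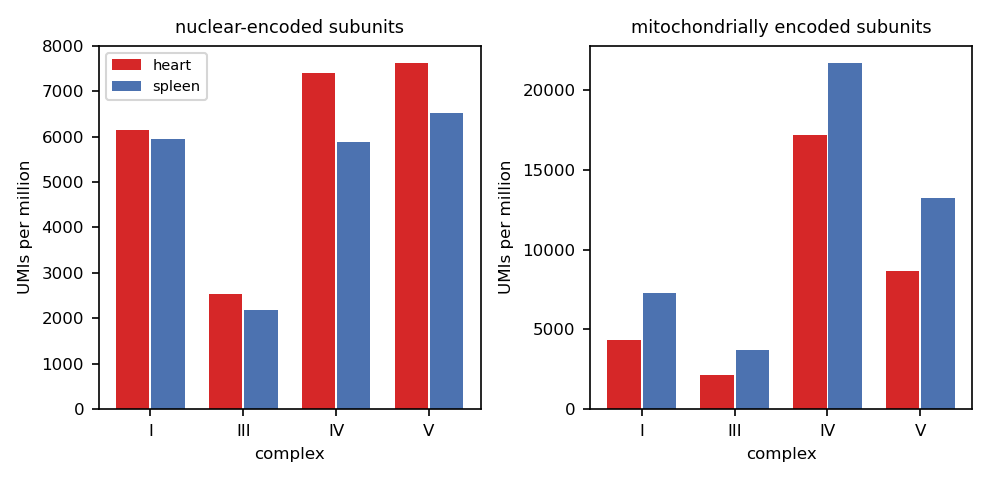
Summed level of nuclear-encoded subunits (left) and of mitochondrially encoded subunits (right) of complexes I, III, IV and V in heart and spleen T cells, as CPM with axes from 0. The nuclear bars are higher in heart and the mitochondrial bars lower in heart for each of the 4 complexes.

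Neighbouring lists of mitochondrial genes, counted with the same minimum of 10 CPM, are read against all genes, of which 43% were higher in heart with a median of -0.11 (31.1% and -0.32 with the other total). Electron carriers and respiratory proteins outside the symbol rule were higher in heart for all 7 past the minimum, of 9 listed, with a median log2 ratio of 0.30. With the other total 6 of 7 were higher. In cells that were not dividing 8 of this list passed the minimum, with a median of 0.06. Atpif1, the inhibitor of ATP synthase, stood at 198 CPM in heart against 107 in spleen. Carriers and channels were higher for 7 of 8 with either total, led by the ADP/ATP carrier Slc25a4 (262 and 133 CPM). Assembly factors of complexes I to V outside the rule were lower for 22 of 28 (23 with the other total), with a median log2 ratio of -0.41, led by Coa4 (7.69 and 18.5 CPM) and Tmem126b (11.6 and 25.3 CPM). Mitochondrial ribosomal proteins were lower for 51 of 73 (61 with the other total; median -0.14) and import proteins for 12 of 17 (14 with the other total; median -0.07); in cells that were not dividing these medians were -0.28 and -0.35, beside -0.14 for all genes. Both lists lay near the median of all genes over all T cells. The tricarboxylic acid cycle was divided, with 9 of 15 higher (6 with the other total) and a median of 0.03 that was -0.13 in cells that were not dividing, and Suclg1, which makes the succinate used by complex II, at 79.2 and 154 CPM.

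Regulators of mitochondrial biogenesis split 4 higher to 5 lower (3 to 6 with the other total). Gabpb1, a subunit of the ETS factor GABP, stood at 59.6 CPM in heart against 17.8 in spleen, whereas its partner Gabpa stood at 20.8 and 22.6 CPM. Tfam, which packs and transcribes mitochondrial DNA, stood at 33.8 and 65.2 CPM, and Myc at 3.27 and 13.97 CPM. For scale, all 13 glycolysis genes were higher in heart (12 with the other total) with a median log2 ratio of 1.37, beside 0.13 for the respiratory chain members. A list of 6 hypoxia response genes had 4 higher and 2 lower in heart with either total. Its median log2 ratio was 1.55.

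Free RNA carried these transcripts at nearly the level of cells. Barcodes of 1 to 100 UMIs gave 22614 CPM of the members in heart and 21034 CPM in spleen, with complex IV at 6680 and 5672 CPM. The difference in complex IV between the libraries was thus present in empty droplets too, and the part of free RNA in the ratios of the cells was not tested. Many of these genes also have processed pseudogenes, and how the authors' counting divided reads between a gene and its copies is not given in the sources used here, so the levels of single small subunits are uncertain.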

How the data were processed

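UMI counts per gene and barcode were used as deposited: per the labels' protocols the authors made Chromium 3' v3 libraries of sorted TEa cells, and the counts carry no normalization. Per the file headers both matrices were written by Cell Ranger 3.0.2, whereas Cell Ranger 7.0.0, the R package Seurat 4.0.0 and the mm10 build appear in the submitters' processing notes. The labels' protocol speaks of a nuclei suspension; whether intronic reads were counted is not given in the sources used here.

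Barcodes with at least 1000 UMIs, 500 genes and at most 10% mitochondrial UMIs were kept (4074 heart, 6583 spleen). Scrublet (expected doublet rate 0.06) marked 2 heart and 0 spleen barcodes and is taken not to have worked, so doublets can remain. Barcodes were clustered jointly (scanpy 1.11.5, leidenalg 0.10.2, resolution 0.6, 2000 variable genes, 30 components) without the members, mitochondrial, ribosomal protein, receptor segment and sex-linked genes. A myeloid cluster (86 heart and 10 spleen barcodes) and barcodes with fewer than 5 UMIs of 7 T cell markers (1 and 12; a minimum chosen after seeing the data) were removed. Cells were called dividing with at least 2 of 1000 thinned UMIs from 10 cycling markers. Intervals are exact Poisson, conditional binomial for ratios, and Clopper-Pearson for shares; those of ratios between complexes use a normal approximation on the log scale. The functions were tested on simulated data.

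The members, gene lists and tests were chosen with earlier results of these data known. Named members are the 8 highest and 8 lowest ratios past 10 CPM, the most abundant of each complex, tissue forms, core subunits and the 4 Sdh genes. Of the other lists up to 4 genes farthest from equal could be named. Fewer were, and none of the glycolysis, hypoxia response, mitochondrial ribosome, import and mitochondrially encoded lists. Cyc1 and Gabpa are named beside these. Others are named where a count, a promoter string or the dividing cells single them out, which was decided after their values were seen. Gene coordinates follow GRCm38 (RefSeq GRCm38.p6 for promoters). Alternatives covered totals, cell filters, depth, pseudocount, minimum level, cell state and cluster resolution. 1 gene of the named set is not reported here.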

Additional observations from a re-analysis of the deposited data

Results flagged for a closer look

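The mitochondrially encoded subunits differed in direction between the libraries when dividing cells were set against other cells. In heart they were higher in dividing cells (33844 against 31834 CPM, log2 ratio 0.088), and in spleen lower (35694 against 46431 CPM, log2 ratio -0.38). Among the members, Atp5l was lower in dividing heart cells (672 against 711 CPM, log2 ratio -0.081) and higher in dividing spleen cells (659 against 562 CPM, 0.23). Cox4i1 showed the same pattern with smaller values (-0.065 in heart, 0.095 in spleen). In each case both counting intervals left out equal levels, and the difference between the libraries was not tested. 

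Cox4i2, which had 4 UMIs in the T cells of each library, had 17 UMIs (6.91 CPM, exact Poisson interval 4.02 to 11.1) in the 86 myeloid barcodes removed from the heart library, found in 6 of them. A count of 0 there would have allowed up to 1.22 CPM.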

How the results depend on the processing

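Values are log2 ratios of heart over spleen, beside 0.20 for the sum of all members, 0.047, 0.27, 0.22, 0.33 and 0.22 for complexes I to V and -0.72 for the assembly factors. A change beyond the counting interval is given. Apart from fewer cells or genes, the cause was not tested. On the first scale 15.8% of all genes were at least 1.5-fold higher in heart and 21% at least 1.5-fold lower. Such shares are given above also for the 2-fold mark, each state of division and the clusters. For the other alternatives the share of all genes past the fold was not counted, so those counts have no background here. With totals without mitochondrial, ribosomal protein and Malat1 UMIs, the median member was -0.044, all members 0.029, complex I -0.13, complex II 0.095, complex III 0.045, complex IV 0.15, complex V 0.052, assembly factors -0.89, and the count of members was 36 higher and 1 past the fold and higher and 6 past the fold and lower. Centred on the median ratio of genes of at least 50 CPM, the median member was 0.078, all members 0.15, complex I -0.0043, complex II 0.22, complex III 0.17, complex IV 0.28, complex V 0.17. With at most 5% mitochondrial UMIs, all members 0.18, complex I 0.025, complex III 0.20, complex IV 0.30, complex V 0.20. Leaving out the deepest cells (over 3 times the median UMIs), the median member was 0.072, all members 0.15, complex I -0.022, complex II 0.15, complex III 0.19, complex IV 0.29, complex V 0.16, assembly factors -0.86. As a mean of per-cell CPM, the median member was 0.024, all members 0.12, complex I -0.066, complex II 0.084, complex III 0.19, complex IV 0.26, complex V 0.15, assembly factors -0.91, and the count of members was 5 past the fold and lower. With cells thinned to 1000 UMIs, the median member was 0.032, all members 0.13, complex I -0.065, complex II 0.094, complex III 0.16, complex IV 0.27, complex V 0.16, assembly factors -0.84, Cox6b2 -0.22, and the count of members was 6 past the fold and lower. In cells not dividing, the median member was 0.062, all members 0.15, complex I -0.026, complex II 0.13, complex III 0.20, complex IV 0.29, complex V 0.17, assembly factors -0.89, and the count of members was 4 past the fold and lower. In dividing cells, the median member was -0.0021, all members 0.037, complex I -0.053, complex III 0.12, complex IV 0.065, complex V 0.060, assembly factors -0.29, and the count of members was 0 past the fold and higher. With all barcodes past the filters, all members 0.20, complex V 0.22. With no minimum level,  the count of members was 5 past the fold and higher. With a minimum of 50 CPM, the median member was 0.17, and the count of members was 0 past the fold and lower. With a 2-fold mark,  the count of members was 0 past the fold and higher. For heart cluster 2 over spleen cluster 4 (chosen after seeing the data), the median member was -0.24, all members -0.10, complex I -0.28, complex II -0.20, complex III 0.025, complex IV 0.015, complex V -0.094, assembly factors -0.998, and the count of members was 18 higher and 0 past the fold and higher and 11 past the fold and lower. For dividing over other cells (0.30 in heart, 0.41 in spleen), the sum was 0.26 in heart with at least 3 marker UMIs, 0.17 and 0.080 with the other totals, 0.23 and 0.38 without the deepest cells, 0.31 in heart as a mean of per-cell CPM, and 0.44 in spleen without the T cell marker minimum (added after seeing the data). The highest cluster over the lowest was 1.41 in heart and 1.43 in spleen, and 1.25 (heart, resolution 0.4), 1.42 (heart) and 1.49 (spleen, resolution 1) otherwise. Among values of named members under the alternatives, 339 were counted as within the counting interval, 258 as moved beyond it and 1 (Cox6b2) as reversed. A reversal was counted only where the main ratio was at least 1.5-fold. Changes of sign of smaller ratios are therefore among the values counted as within or moved. Examples are Sdhd (0.56, down to -0.24) and Cox6a1 (0.31, down to -0.34) between the clusters, and Sdha (-0.39, up to 0.036) in dividing cells. No paired analysis was possible because each group is 1 library. Leaving out a replicate was not possible for the same reason. Complex IV stayed above complex I in every alternative listed with values for both, and the assembly factors stayed lower in heart. Depth limits the tissue forms, which rest on few UMIs.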
